A study of Mus musculus with 20 samples.

Results

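Artemis-deficient pre-B cell lines, in which DNA breaks made by the RAG recombinase are not rejoined, were compared with wild type pre-B cell lines, in which the breaks can be rejoined. The comparison holds 6 of the 20 arrays of the series, 3 per group, chosen by their labels, and every probe set of the array was considered. Every line derives from mouse pre-B cells carrying the v-abl oncogene, and each was exposed to STI571 (imatinib), which blocks the v-abl kinase, at 3 uM for 48 hours. The wild type lines carry no deletion that the labels name, and the Artemis-deficient lines lack the Artemis nuclease. The other lines were RAG-2-deficient (n = 3), Artemis- and ATM-deficient (n = 2, each on 2 arrays that were averaged) or Artemis-deficient with a dominant negative IkB (n = 3, called IkB-DN here). A further 4 arrays held pre-B cells of bone marrow from Artemis-deficient (n = 2) or RAG-1-deficient (n = 2) mice, all with an IgH transgene. The other lines enter through their levels and a shared estimate of the spread, and the labels do not say from which Artemis-deficient lines the IkB-DN lines were made.

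The RAG recombinase, made of the RAG-1 and RAG-2 proteins, cuts antigen receptor genes in developing lymphocytes and leaves coding ends sealed as hairpins. Artemis, a nuclease that works with the kinase DNA-PKcs, opens these hairpins so that the ends can be joined. Blocking the v-abl kinase arrests the cell cycle of such lines and induces RAG, which then cuts the immunoglobulin kappa light chain locus. The kinase ATM signals from open breaks, and NF-kB is a family of transcription factors that IkB proteins hold inactive and that break signals can release.

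Levels are given as log2(signal + 6), a scale on which a signal of 0 has a level of 2.58 and the median probe set of an array has a level of 5.04 to 5.07. A difference is the Artemis-deficient mean minus the wild type mean of these levels. Of 22234 probe sets that passed the filter on low signal, 110 (0.495%) were called at an adjusted p below 0.05 by limma, 68 (0.306%) higher and 42 (0.189%) lower in the Artemis-deficient lines. Represented by 1 probe set each, 57 of 9982 genes (0.571%) were called, 35 (0.351%) higher and 22 (0.22%) lower. In all 57 the 3 lines of one group lay on one side of the 3 lines of the other. Over all genes tested, 742 (7.43%) had higher and 805 (8.06%) had lower Artemis-deficient lines without overlap. At an unadjusted p below 0.05 there were 2733 probe sets, and 619 genes (6.2%) were higher and 644 (6.45%) lower. The called differences of genes ran from 0.61 to 3.27 upwards and from -0.89 to -4.08 downwards, and they lay off the diagonal at high and low levels alike in the plot of mean levels.

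**Figure D1:**
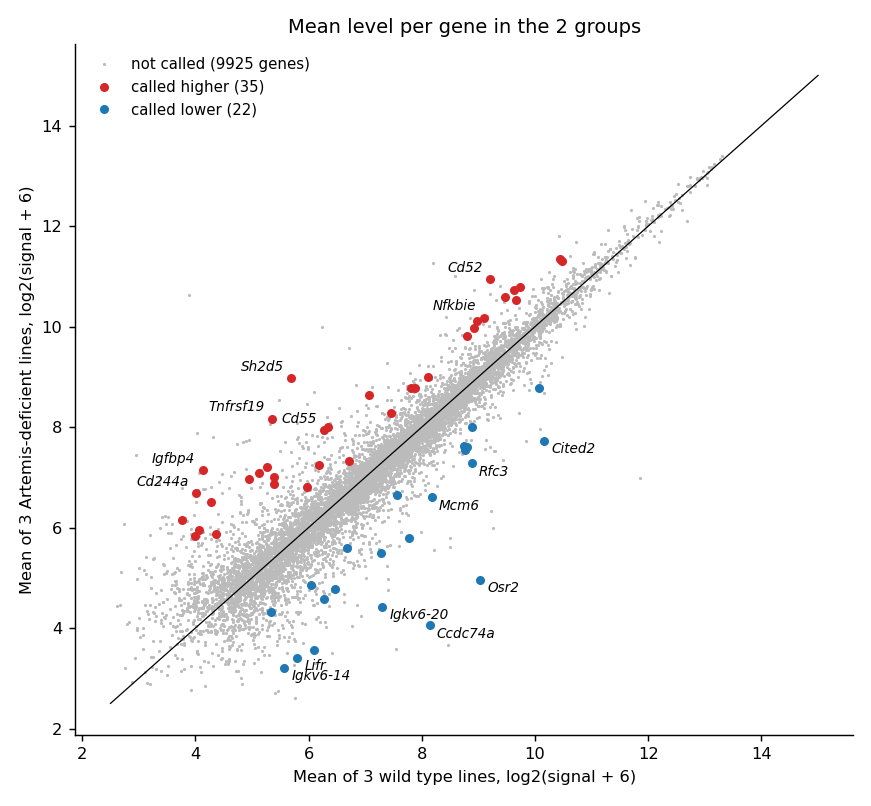
Mean level of each of 9982 genes in the 3 wild type lines (x axis) and the 3 Artemis-deficient lines (y axis), both as log2(signal + 6), with the diagonal of equal levels. Red points are the 35 genes called higher and blue points the 22 called lower; Ccdc74a and Osr2 lie farthest below the diagonal among the called genes.

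The number of calls depended on the IkB-DN lines, which are not part of the comparison but share its estimate of the spread. Without them 11 probe sets (0.0495%) were called, all among the 110, and with the 2 compared groups alone 6 (0.027%) were called, of which 4 were among the 110. At an unadjusted p below 0.05 these fits gave 2216 and 1881 probe sets. The 3 IkB-DN samples correlated with each other across probe sets at 0.977 to 0.984, close to the 0.982 and 0.984 of the 2 pairs of technical arrays, while wild type lines correlated with each other at 0.912 to 0.936 and Artemis-deficient lines at 0.927 to 0.954. Artemis-deficient replicate 3 correlated with the IkB-DN samples at 0.945 to 0.950 and with the other Artemis-deficient lines at 0.927 and 0.930, whereas those lines reached 0.907 to 0.931 with the IkB-DN samples. Without the IkB-DN lines and replicate 3, 9 probe sets were called. The median SD of a probe set was 0.27 in the wild type, 0.24 in the Artemis-deficient and 0.16 in the IkB-DN lines. The residual degrees of freedom were 9 in the shared fit, 7 without the IkB-DN lines and 4 with the 2 groups alone. Without Artemis-deficient replicate 2 the count was 60, and without wild type replicate 3 it was 188. The gene calls kept in every fit that left out 1 line of either group were 12 of 57, namely Ccdc74a, Osr2, Cited2, Rfc3, Jakmip1, 4933404O12Rik, Tnfrsf19, Cd244a, Nuak2, Tmod4, Kif17 and Ahcyl2. Of these, Ccdc74a, Cited2, Tnfrsf19, Cd244a and Nuak2 were also called without the IkB-DN lines, the first of them and Cited2 also with the 2 groups alone. Nuak2, a stress-activated kinase, is named because of these fits, after its values were seen.

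**Figure D2:**
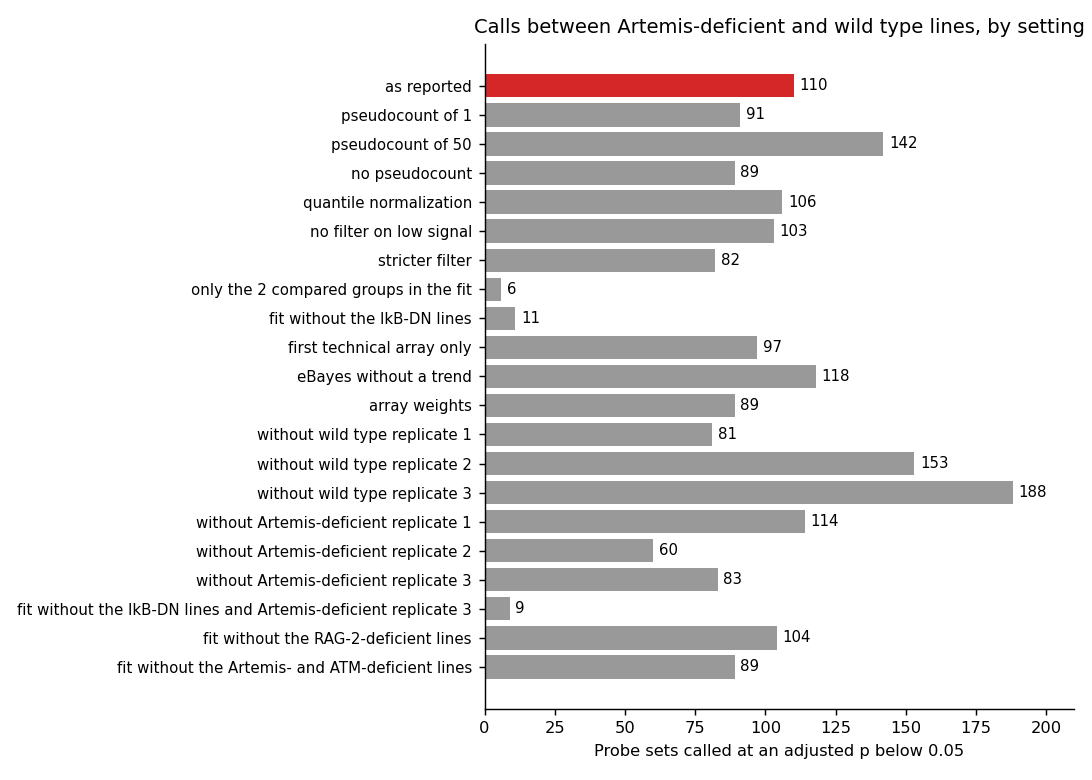
Number of probe sets called between Artemis-deficient and wild type lines (x axis) under each processing setting (y axis), with the reported setting in red. The count is 110 as reported and 6 to 11 in the 3 fits without the IkB-DN lines.

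The design text calls the lines of a group biological replicates. The titles of 2 wild type samples share a name stem, and no label says whether these came from separate animals. Artemis-deficient replicate 3 has a title with a suffix, beginning with INV, that the other Artemis-deficient titles lack. The titles of all RAG-2-deficient lines contain Bcl, unlike those of other lines. What these additions stand for was not analysed here. Wild type replicate 3 has a title that begins with ATM although its source names it wild type, and its Atm level of 7.55 lay beside the 7.48 and 7.19 of the other wild type lines. The Artemis- and ATM-deficient lines were at 6.82 and 6.83 in this probe set. In a second probe set of Atm they were at 5.44 and 5.48, and the wild type lines at 7.46, 7.41 and 7.42. Artemis-deficient lines were there at 6.93, 6.42 and 6.93 (difference -0.67, SE 0.14, adjusted p = 0.0616). Dclre1c, the gene of Artemis, was not analysed here, so the labels were not checked against it. In the lines labelled RAG-2-deficient, Rag2 was at 4.69, 8.03 and 8.38, against 8.28, 7.48 and 7.86 in wild type lines, so only replicate 1 was low. Whether this probe set lies in the deleted part of Rag2 was not analysed here, and these levels go against the label in replicates 2 and 3 if it does. Transcripts that define pre-B cells were high in both groups: the mean of Cd79a, a signalling chain of the pre-B receptor, was 12.39 ± 0.06 in wild type and 12.22 ± 0.24 in Artemis-deficient lines, and that of Rag1 was 11.24 ± 0.20 and 11.29 ± 0.29 (SD, n = 3). Of the other cell types, 6 of 15 neutrophil and monocyte markers on the array passed the filter, 3 of 11 T and NK cell markers, 1 of 6 erythroid markers and 0 of 8 dendritic cell markers, and none of them was called. Sex-linked transcripts separated the lines. Xist, the RNA of the inactive X chromosome, was at 11.65 to 12.09 in wild type lines, and Artemis-deficient replicates 1, 2 and 3 had 11.90, 4.52 and 4.56 (difference -4.87, SE 1.44, adjusted p = 0.175). The Y-linked Uty ran the other way, at 3.19 to 4.05 in wild type lines and at 3.20, 7.80 and 7.65 (difference 2.71, SE 0.90, adjusted p = 0.229). A second probe set of Uty, empty in Artemis-deficient replicate 1, was called with a difference of 2.33 (adjusted p = 0.00793).

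The called gene with the largest rise was Sh2d5, which encodes an adaptor protein with an SH2 domain. Its levels were 9.13, 9.30 and 8.48 in the Artemis-deficient lines against 5.98, 4.88 and 6.23 in wild type, a difference of 3.27 (SE 0.50, 9.66-fold, adjusted p = 0.019). All 3 Artemis-deficient lines lay above all 3 wild type lines, and a second probe set of the gene was called with a difference of 3.30. The adjusted p was 0.0638 without Artemis-deficient replicate 2 and 0.0798 without the IkB-DN lines. Among called probe sets without a gene name, 2 had larger rises. The first was at 9.02, 8.56 and 9.35 against 6.15, 3.58 and 3.32 (4.62, SE 0.66, adjusted p = 0.0138, and 0.0685 without the IkB-DN lines). The second, empty in 1 line of each group, was at 9.44 and 9.42 against 3.07 and 2.97 (6.41, SE 0.16, adjusted p = 4.47e-08), and over all lines with a value it was high where Uty was high.

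Tnfrsf19, a receptor of the TNF family, was at 8.37, 8.39 and 7.76 against 5.13, 4.87 and 6.04, a rise of 2.83 (SE 0.31, 7.09-fold, adjusted p = 0.00259, and 0.0237 without the IkB-DN lines). The RAG-2-deficient lines, at a mean of 8.57 ± 0.52 (SD, n = 3), and the IkB-DN lines, at 9.60 to 9.67, were also high. The Artemis- and ATM-deficient lines, at 6.16 and 6.29, lay just above the highest wild type line. The wild type lines were thus the lowest of all lines in this probe set. In another called probe set of Tnfrsf19 (1.41, adjusted p = 0.0374) wild type lines, at 4.18 to 4.74, overlapped Artemis- and ATM-deficient lines, at 4.89 and 4.62. Cd244a, a receptor of the SLAM family best known on natural killer cells, was at 6.68, 6.78 and 6.60 against 3.90, 4.67 and 3.46, a rise of 2.68 (SE 0.28, 6.42-fold, adjusted p = 0.00259, and 0.0234 without the IkB-DN lines). Both its probe sets were called, and the wild type lines were again below every other line, RAG-2-deficient ones at 5.04 to 5.71 included.

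Cd52 and Cd55 had another arrangement. Cd52, a small lipid-anchored glycoprotein of lymphocytes, was at 10.56, 10.72 and 11.54 in Artemis-deficient lines and at 9.73, 8.93 and 8.96 in wild type lines, a rise of 1.73 (SE 0.29, 3.33-fold, adjusted p = 0.023). Every other line lay below the Artemis-deficient ones, between 8.75 and 9.62. Cd55, which protects cells from complement, was at 7.65, 8.02 and 8.17 against 5.72, 6.36 and 6.74, a rise of 1.67 (SE 0.30, 3.19-fold, adjusted p = 0.0355). The lines of the other groups reached 7.10 at most, below the lowest Artemis-deficient line, and all 3 of its probe sets were called. Both calls were lost without the IkB-DN lines, at adjusted p of 0.0941 for Cd52 and 0.127 for Cd55. For Cd52 the adjusted p was also 0.054 without wild type replicate 2 and 0.0509 and 0.0506 without Artemis-deficient replicates 2 and 3. For Cd55 it was 0.0804 and 0.0586 without wild type replicates 1 and 2, and 0.0941 and 0.0869 without Artemis-deficient replicates 2 and 3.

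The other named rises were Igfbp4, an insulin-like growth factor binding protein (3.02, 8.09-fold), Zfp982 (2.39), Tmod4, a tropomodulin that caps actin filaments (2.23), the kinesin Kif17 (2.02), the interferon-induced Xaf1 (1.95), the endocytic protein Ehd3 (1.94), the ubiquitin ligase Rnf144a (1.88), the planar polarity protein Vangl1 (1.82), the fatty acid elongase Elovl6 (1.67) and Ahcyl2 (1.61), with adjusted p from 0.0127 for Tmod4 to 0.0433 for Igfbp4. Igfbp4 was at 7.30, 6.89 and 7.24 against 4.35, 3.37 and 4.66, without overlap. All 4 other probe sets of Igfbp4 had differences above 0, from 1.12 to 3.06, and none was called. A second probe set of Xaf1 went the other way at -1.32 and was not called. In the fit without the IkB-DN lines none of these 10 was called, the adjusted p being 0.155 for Igfbp4 and 0.0597 for Ahcyl2.

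Ccdc74a and Osr2 had the largest falls among the called genes. Ccdc74a, a gene of a coiled-coil protein, was at 3.89, 3.96 and 4.33 in Artemis-deficient lines and at 8.06, 8.59 and 7.77 in wild type lines, a fall of -4.08 (SE 0.36, 16.9-fold, adjusted p = 0.000886). The wild type lines stood apart from all 11 other line samples, which ranged from 3.89 to 6.08. The call held without the IkB-DN lines (adjusted p = 0.00929) and with the 2 groups alone (0.0101), but a second probe set of the gene differed by -0.0029 (adjusted p = 0.998). Osr2, a zinc finger transcription factor, was at 5.96, 3.52 and 5.42 against 9.11, 8.56 and 9.44, a fall of -4.07 (SE 0.61, 16.8-fold, adjusted p = 0.0169, and 0.0674 without the IkB-DN lines). Its RAG-2-deficient lines lay in between, at 7.49, 6.11 and 7.70.

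Cited2 encodes a co-regulator that binds CBP and p300. It was at 7.95, 7.58 and 7.65 against 10.17, 9.85 and 10.47, a fall of -2.44 (SE 0.25, 5.41-fold, adjusted p = 0.00259, 0.0184 without the IkB-DN lines and 0.0289 with the 2 groups alone). Its second probe set fell by 2.76. The Artemis- and ATM-deficient lines, at 9.71 and 9.14, lay near the RAG-2-deficient lines, at 9.59, 8.67 and 8.91, while the IkB-DN lines were lowest, at 6.84 to 7.31. Lifr, the receptor of leukaemia inhibitory factor, was at 3.00, 2.87 and 4.36 against 5.85, 5.56 and 6.00, a fall of -2.39 (SE 0.39, 5.26-fold, adjusted p = 0.0229). The RAG-2-deficient lines, at 5.68 to 6.48, were at the wild type level. The call of Lifr was lost without wild type replicate 1 (adjusted p = 0.0625), without Artemis-deficient replicate 1 (0.0574) or 2 (0.0729), and without the IkB-DN lines (0.0901).

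**Figure D3:**
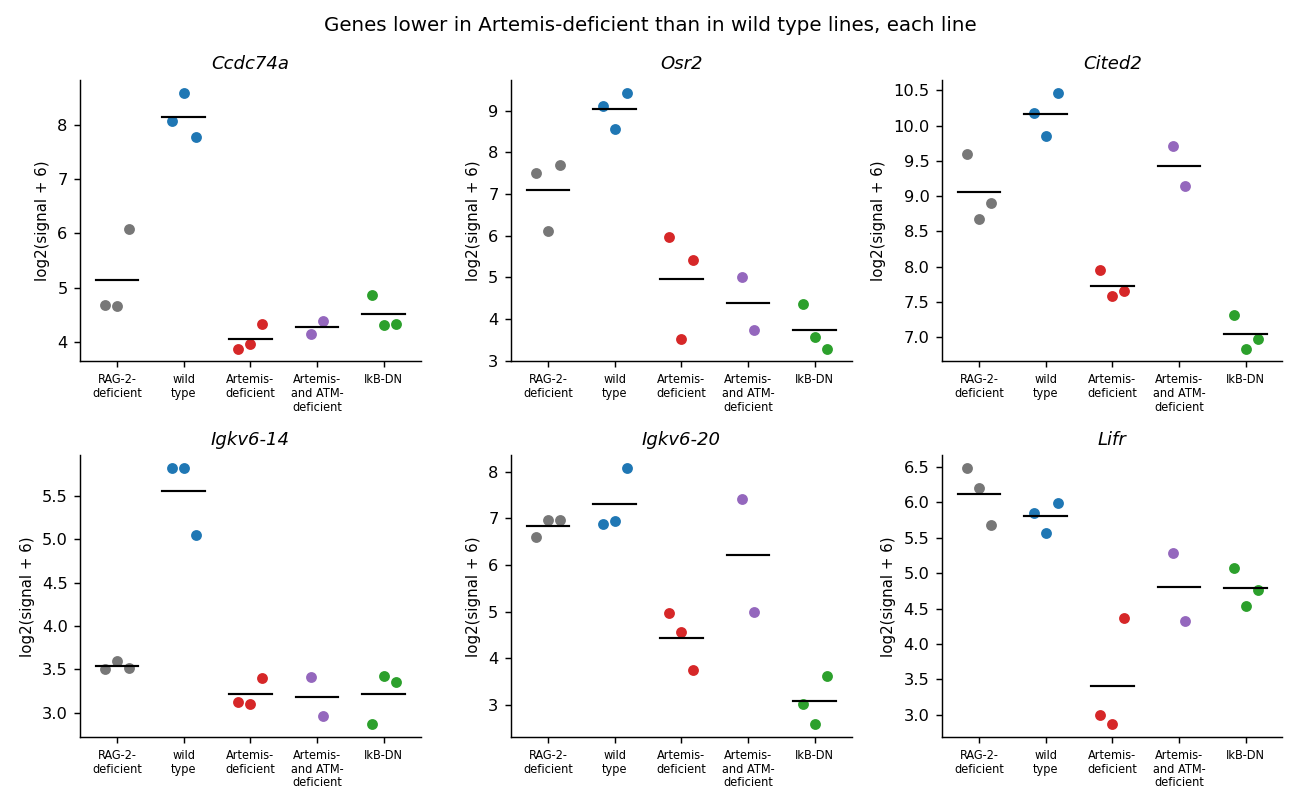
Level of 6 genes called lower in Artemis-deficient than in wild type lines, as log2(signal + 6) on the y axis of each panel, by group on the x axis; points are lines and bars are group means. Ccdc74a and Igkv6-14 are high in the 3 wild type lines and low in the 11 other samples, whereas Igkv6-20 and Lifr are as high in RAG-2-deficient as in wild type lines.

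The remaining named falls were Bend4 (-2.54), the mitotic kinesin Kif18a (-1.99), 4933404O12Rik (-1.79), the RNA-binding protein Pcbp4 (-1.69), the adhesion protein Flrt1 (-1.69), Jakmip1 (-1.29) and Lancl1 (-1.21), together with Igkv6-20, Igkv6-14, Rfc3 and Mcm6 below. In its representative probe set Jakmip1, a microtubule-binding partner of Janus kinases, was at 8.81, 8.69 and 8.85 in Artemis-deficient lines. These levels were below those of all other lines, which ranged from 8.92 to 10.35. Of its 3 other probe sets, 2 were called, with differences of -1.18 and -1.68, and the last differed by 0.0068 (adjusted p = 0.994). In none of these 3 were the Artemis-deficient lines below all other lines. Bend4 was at 5.96 to 6.38 in wild type lines and at 4.67 or less in every other line with a value. Of these 7, none was called without the IkB-DN lines.

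Among these falls were transcripts of kappa variable (V) segments. Artemis acts in the joining of a kappa V segment to a J segment. Whether these probe sets read joined or unjoined V segments was not tested. Igkv6-14 was at 3.13, 3.10 and 3.40 in Artemis-deficient and at 5.82, 5.82 and 5.05 in wild type lines, a fall of -2.35 (SE 0.35, 5.10-fold, adjusted p = 0.0148). The 8 samples of the other 3 groups of lines, 2.87 to 3.60, lay with the Artemis-deficient lines. Its adjusted p was 0.0533 without wild type replicate 1 and 0.0597 without the IkB-DN lines. Igkv6-20 was at 4.96, 4.57 and 3.75 against 6.89, 6.94 and 8.07, a fall of -2.87 (SE 0.55, 7.32-fold, adjusted p = 0.0453). The lines labelled RAG-2-deficient were at 6.60, 6.97 and 6.95 for Igkv6-20, at the wild type level. The Artemis- and ATM-deficient lines were at 7.42, within the wild type range, and at 4.99, and the IkB-DN lines at 2.59 to 3.63. The call of Igkv6-20 was lost in every fit that left out 1 line, with adjusted p from 0.0566 to 0.104, and without the IkB-DN lines (0.128).

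The other immunoglobulin probe sets were looked at after these values were seen. A probe set assigned to several kappa V genes fell by 2.19 (adjusted p = 0.0326, and 0.109 without the IkB-DN lines). Among single-gene kappa V probe sets, a pair had lower Artemis-deficient lines without overlap but was not called (differences -1.53 and -1.74, adjusted p = 0.18 and 0.0969), and Igkv8-30 had overlapping groups (-0.63, adjusted p = 0.773). A lambda probe set of Iglv1 was at 8.23, 10.83 and 5.81 in wild type lines and at 4.18 or less where it was measured in any other line, and its difference of -4.22 (SE 1.17) had an adjusted p of 0.187. A further pair of Iglv1 probe sets did not have this pattern. Their groups overlapped (differences 0.52 and -1.44, adjusted p = 0.929 and 0.745), and RAG-2-deficient replicate 1 was at 10.42 and 8.13. Ighm, the gene of the mu heavy chain, was at 12.42, 12.86 and 12.96 in wild type and 12.74, 12.92 and 12.36 in Artemis-deficient lines (difference -0.07, SE 0.22, adjusted p = 0.934). RAG-2-deficient lines were at 12.99 to 13.07, and whether the probe set reads a joined heavy chain was not tested. Kappa V genes are close relatives, so a probe set named for a V gene may also bind others.

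The feedback list holds genes of the IkB family and other regulators of NF-kB signalling, called feedback genes here. Whether NF-kB induces each of them in these cells was not tested. A second list holds subunits and kinases, which carry the signal of NF-kB. Of 13 feedback genes tested 1 was called higher and 0 lower, beside 0.351% of all genes called higher. The median difference of the 13 was 0.36, against -0.02 for all genes, 11 of 13 were above 0, and in 5 the Artemis-deficient lines lay above the wild type lines without overlap (38.5%, against 7.43% of all genes). Of 11 subunits and kinases 0 were called by limma, 3 had an unadjusted p below 0.05, all higher (beside 6.2% of all genes), and the median was 0.16. That median was 0.10, 0.07 and 0.04 without wild type replicate 1, wild type replicate 2 and Artemis-deficient replicate 1, and 0.28 without Artemis-deficient replicate 3, and without wild type replicate 1 the members above 0 went from 8 to 6 of 11.

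Nfkbie, which encodes the inhibitor IkB epsilon, was the called feedback gene. Its levels were 10.28, 9.97 and 10.28 in Artemis-deficient and 9.50, 8.97 and 8.81 in wild type lines, a rise of 1.08 (SE 0.17, 2.12-fold, adjusted p = 0.0201). The Artemis-deficient lines were the highest of all lines: RAG-2-deficient lines were at 8.01, 8.35 and 8.06, Artemis- and ATM-deficient lines at 7.95 and 8.12, and IkB-DN lines at 8.06, 7.84 and 7.97. The wild type lines lay between these groups and the Artemis-deficient lines. A second probe set differed by 1.02 (adjusted p = 0.0587). The call was lost without Artemis-deficient replicate 1 (adjusted p = 0.0554) or 3 (0.0565), and without the IkB-DN lines (0.0832).

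The next 3 feedback genes by p were not called. Tnip1, which encodes a partner of A20, was at 8.37, 8.16 and 8.31 against 7.95, 7.56 and 7.46 (difference 0.62, SE 0.16, adjusted p = 0.116). Tnfaip3, the gene of the ubiquitin-editing enzyme A20, was at 8.85, 8.69 and 8.86 against 8.37, 8.01 and 7.33 (0.90, SE 0.25, adjusted p = 0.151), and Birc3, an inhibitor of apoptosis of the TNF receptor pathway, at 10.63, 10.43 and 11.26 against 10.08, 10.25 and 10.05 (0.65, SE 0.20, adjusted p = 0.194). In each of the 3 the groups did not overlap, and the wild type mean lay above the RAG-2-deficient mean, by little for Tnip1 (7.66 against 7.65). The means of 13 of the 24 genes of both lists (54.2%) stood in the order RAG-2-deficient, wild type, Artemis-deficient, as did 17.7% of all genes. Nfkbia, which encodes IkB alpha, was at 12.22, 12.01 and 12.26 against 12.10, 11.75 and 11.56, overlapping groups in its representative probe set (0.36, adjusted p = 0.466). Its other probe sets differed by 0.36 to 0.53, and none was called. A pair of these had groups without overlap (0.48, adjusted p = 0.171, and 0.53, adjusted p = 0.294).

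**Figure D4:**
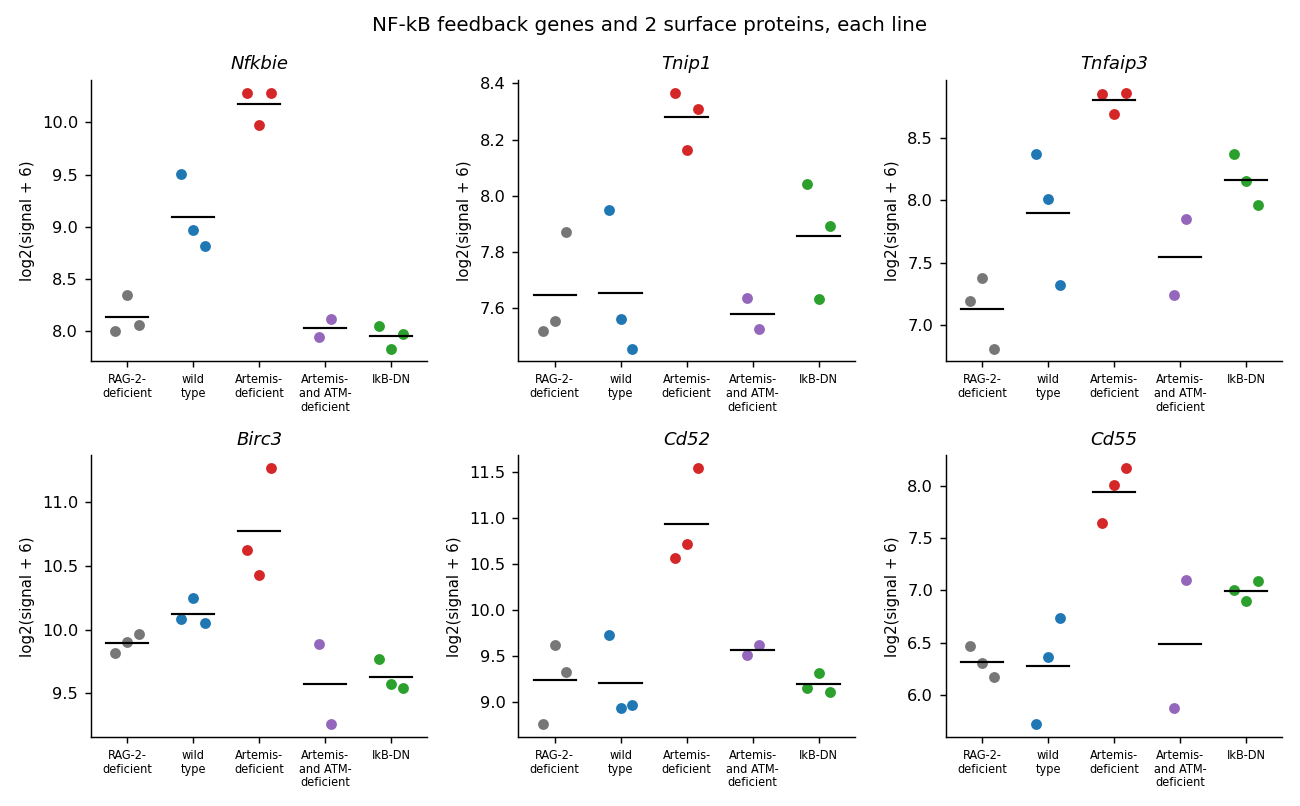
Level of Nfkbie, 3 further NF-kB feedback genes and the surface proteins Cd52 and Cd55, as log2(signal + 6) on the y axis of each panel, by group on the x axis; points are lines and bars are group means. The 3 Artemis-deficient lines are above the 3 wild type lines in every panel, and above every line of the other groups.

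The promoter windows of Nfkbie and of these 3 genes are shown because they are the NF-kB list members with the smallest p. Each runs from 250 bases before to 50 bases after a RefSeq transcription start on GRCm38.p6, read 5′ to 3′ on the gene's strand, with matches to the kB consensus of 10 bases on either strand in capitals. The windows lie at chr17:45555450-45555749 (plus strand) for Nfkbie, chr11:54962891-54963190 (minus strand) for Tnip1, chr10:19015361-19015660 (minus strand) for Tnfaip3 and chr9:7873121-7873420 (minus strand) for Birc3.
Nfkbie: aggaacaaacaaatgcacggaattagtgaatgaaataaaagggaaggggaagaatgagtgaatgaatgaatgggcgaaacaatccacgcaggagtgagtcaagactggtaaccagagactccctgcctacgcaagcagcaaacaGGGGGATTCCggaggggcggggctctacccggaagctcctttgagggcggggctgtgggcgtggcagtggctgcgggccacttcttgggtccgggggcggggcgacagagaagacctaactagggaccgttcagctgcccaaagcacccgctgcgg
Tnip1: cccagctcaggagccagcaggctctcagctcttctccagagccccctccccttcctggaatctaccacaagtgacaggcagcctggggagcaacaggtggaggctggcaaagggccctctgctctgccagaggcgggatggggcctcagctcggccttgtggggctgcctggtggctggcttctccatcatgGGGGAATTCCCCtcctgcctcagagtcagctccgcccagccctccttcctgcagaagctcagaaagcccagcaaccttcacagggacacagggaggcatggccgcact
Tnfaip3: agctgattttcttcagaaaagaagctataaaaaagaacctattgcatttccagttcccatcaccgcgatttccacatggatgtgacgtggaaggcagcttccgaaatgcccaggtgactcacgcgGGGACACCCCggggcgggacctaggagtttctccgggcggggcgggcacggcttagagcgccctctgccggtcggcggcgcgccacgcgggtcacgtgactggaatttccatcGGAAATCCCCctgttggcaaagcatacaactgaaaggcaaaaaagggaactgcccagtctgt
Birc3: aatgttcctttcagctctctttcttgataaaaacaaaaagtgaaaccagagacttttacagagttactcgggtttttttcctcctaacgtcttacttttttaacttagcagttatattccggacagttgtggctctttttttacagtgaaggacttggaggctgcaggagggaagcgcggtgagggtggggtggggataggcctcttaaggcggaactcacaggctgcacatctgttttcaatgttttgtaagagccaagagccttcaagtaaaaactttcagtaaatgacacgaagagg
The match of Nfkbie begins 106 bases before the start site. Tnip1 holds 3 overlapping matches that begin 58, 57 and 56 bases before it, Tnfaip3 holds 2 that begin 125 and 12 bases before it, and Birc3 holds 0 in this window. Tnfaip3 has 2 windows in the RefSeq table, and the one with matches is shown. Of 27025 genes with such windows 9.55% had a match, and of the 19 NF-kB list members with a window 9 had one. A match is a stretch of letters and does not show binding.

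Lymphocyte adhesion and migration genes let cells bind and move. Of 20 tested 2 were called higher and 0 lower, beside 0.351% and 0.22% of all genes, 16 were above 0 (47.4% of all genes were), and the median difference was 0.36. Without Artemis-deficient replicate 3 the median was 0.23 with 12 above 0. Icam2, an integrin ligand, was at 8.84, 8.79 and 8.70 against 7.76, 8.09 and 7.56 (0.98, SE 0.18, adjusted p = 0.0405), and the actin regulator Coro1a at 10.51, 10.55 and 10.74 against 9.78, 9.75 and 8.86 (1.13, SE 0.22, adjusted p = 0.0453). For Icam2 the wild type lines were below every other line, RAG-2-deficient lines at 8.31 to 8.96 included. Icam1, whose product binds the integrin LFA-1, was at 7.83 to 8.14 against 7.13 to 7.44 (0.69, SE 0.14, adjusted p = 0.0599), and Swap70, a regulator of B cell migration, at 8.46, 8.77 and 8.64 against 8.26, 7.45 and 7.60 (0.85, SE 0.21, adjusted p = 0.11). The list had 1 call without wild type replicate 3 and none without the IkB-DN lines or without any of the 3 Artemis-deficient lines. Icam2 also lost its call without wild type replicate 1 (adjusted p = 0.0871) or 3 (0.0778).

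Of 16 cytokines and TNF family genes tested, Tnfrsf19 was called higher and Lifr lower, beside 0.351% and 0.22% of all genes. Il12a, the p35 chain of interleukin 12, was at 10.09, 10.19 and 10.21 against 9.63, 8.91 and 8.03 (1.30, SE 0.33, adjusted p = 0.114), and Ltb, lymphotoxin beta, at 8.87, 9.61 and 10.24 against 6.84, 8.21 and 5.09 (2.86, SE 0.72, adjusted p = 0.113). Both had separate groups with a wide range among the wild type lines. In the survival list 0 of 17 were called by limma, and the median was 0.03 (-0.06 to 0.24 with 1 line left out). At an unadjusted p below 0.05 there were 4, 3 higher and 1 lower, beside 6.2% and 6.45% of all genes. The kinase gene Pim2 differed by 1.33 (adjusted p = 0.353) and the BCL-2 relative Mcl1 by 0.26 (adjusted p = 0.152).

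The S phase list holds genes of DNA replication. Of 20 S phase genes 0 were called higher and 2 lower, beside 0.22% of all genes called lower, 19 were below 0, and the median difference was -0.91. Rfc3, a subunit of the clamp loader, was at 7.54, 7.15 and 7.15 against 8.48, 9.02 and 9.15, a fall of -1.60 (SE 0.20, 3.04-fold, adjusted p = 0.00756). Without the IkB-DN lines this probe set had an adjusted p of 0.05 and was not called, whereas its second probe set (-1.80) was, at 0.0234. Mcm6, a subunit of the replicative helicase, was at 6.61, 6.63 and 6.60 against 8.97, 7.94 and 7.61, a fall of -1.56 (SE 0.28, 2.95-fold, adjusted p = 0.0355). RAG-2-deficient lines were near the wild type level for both genes, at 8.06 to 8.67 for Rfc3 and 7.69 to 8.37 for Mcm6. Mcm6 lost its call without any of the Artemis-deficient lines (adjusted p 0.0714 to 0.0839) and without the IkB-DN lines (0.122).

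The size of the S phase difference moved with wild type replicate 1. Averaged over the 20 genes, each centred on its mean over the line samples, that line stood at 1.39, the other wild type lines at 0.41 and -0.18, and the Artemis-deficient lines at -0.33, -0.23 and -0.36. Without wild type replicate 1 the median difference was -0.22, with 14 of 20 below 0 and 2 called, and without wild type replicate 3 it was -1.30 with 4 called. Without any of the Artemis-deficient lines 1 was called, and without the IkB-DN lines 0. Of 22 G2 and M phase genes 0 were called by limma, all 22 were below 0, and the median was -1.08. At an unadjusted p below 0.05 there was 1, beside 6.45% of all genes lower at that level. The centred mean of these genes was 2.55, 0.70 and -1.23 for wild type and 0.19, -0.18 and -1.25 for Artemis-deficient lines, overlapping groups. Without wild type replicate 1 the median was -0.16 and 15 of 22 were below 0, without wild type replicate 3 it was -2.03 with 1 call, and without Artemis-deficient replicate 3 it was -0.67. Cdkn1b, which encodes the cell cycle inhibitor p27, was at 9.73, 9.42 and 9.70 against 9.03, 8.89 and 8.88 (0.68, SE 0.14, adjusted p = 0.0616).

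The p53 target list had no call among 25 genes by limma. Of these, 23 were above 0 (47.4% of all genes were), and the median was 0.70. At an unadjusted p below 0.05 there were 4, all higher, beside 6.2% of all genes. The centred mean of the list was 1.18 and 1.30 in Artemis-deficient replicates 1 and 2 and -0.32 in replicate 3, against -0.28, -0.20 and 0.64 for wild type. Cdkn1a, which encodes the inhibitor p21, was at 10.66, 10.93 and 7.45 against 8.33, 7.49 and 10.82, so the groups overlapped across their full range (0.80, SE 1.29, adjusted p = 0.852). Without Artemis-deficient replicate 3 the median of the list was 1.27, without replicate 1 or 2 it was 0.35 or 0.34, each with 0 calls, and without wild type replicate 2 it was 0.44 with 1 call.

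**Figure D5:**
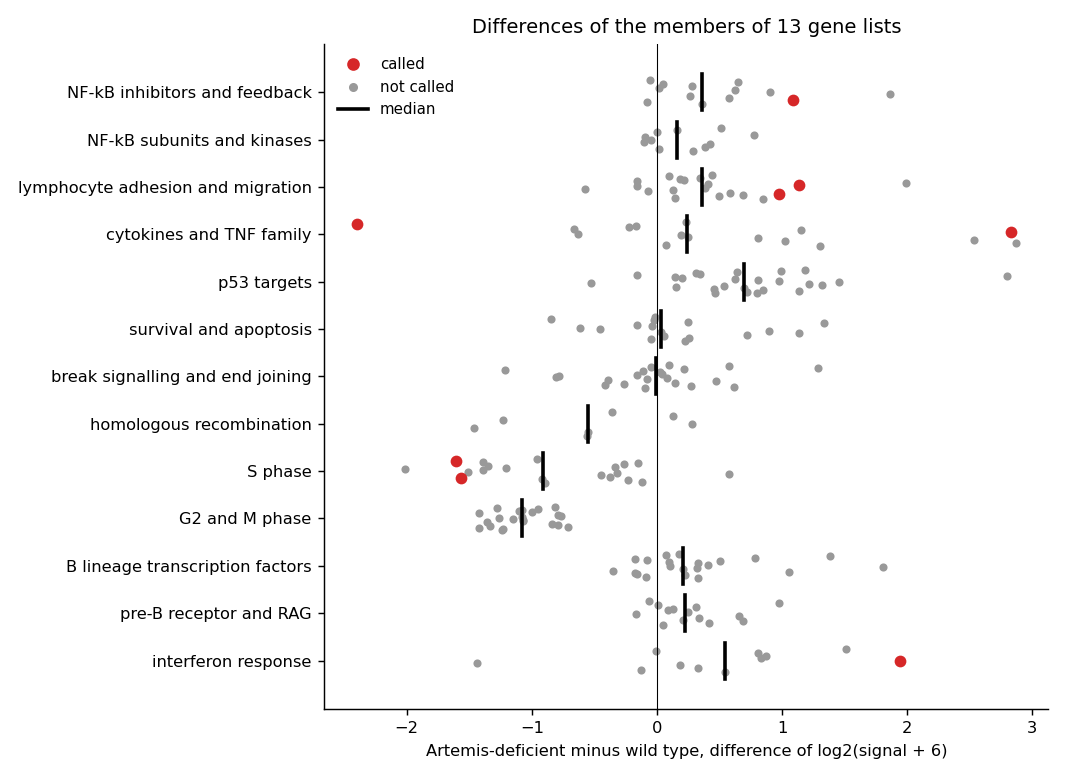
Difference of each tested member of 13 gene lists, Artemis-deficient minus wild type, on the log2(signal + 6) scale (x axis), by list (y axis); red points were called, grey points were not, and black bars are list medians. The p53 target median is 0.70 and the S phase and G2 and M phase medians are -0.91 and -1.08, and 8 of the 9 called list members are drawn, the other, Cd55, being in a list not plotted.

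In 21 of the 27 lists no member was called. Of all genes, 6.2% were higher and 6.45% lower at an unadjusted p below 0.05, to be read beside the unadjusted counts below. Break signalling and end joining genes had 0 calls among 22 by limma, 2 at an unadjusted p below 0.05, and a median of -0.01 (-0.07 to 0.03 with 1 line left out), and homologous recombination genes 0 among 7, 2 unadjusted, and a median of -0.55, which was -0.19 without wild type replicate 1. Of 21 B lineage transcription factors 0 were called, 4 at an unadjusted p below 0.05, with a median of 0.20 (0.10 without wild type replicate 2), and of 14 pre-B receptor and RAG genes 0 were called, 2 unadjusted, with a median of 0.23 (0.15 to 0.37 with 1 line left out). Rag1 differed by 0.05 (SE 0.37) and Rag2 by 0.42 (SE 0.74), with overlapping groups. Among interferon response genes 1 of 11 was called higher, Xaf1, beside 0.351% of all genes. This call was kept without wild type replicate 1 (adjusted p = 0.00436) and lost without any other line of the 2 groups (0.0566 to 0.11) and without the IkB-DN lines (0.111). For H2-D1, a class I molecule, the representative probe set differed by 0.15 (adjusted p = 0.466) while 1 of its other 7 was called at 1.27. In that called probe set the RAG-2-deficient lines were at 11.39 to 11.52 and every other line at 5.86 to 7.89. A further pair of H2-D1 probe sets also had RAG-2-deficient lines far above the others, at 11.11 to 11.58. The cause was not tested.

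The other groups of lines placed the called genes differently. In 7 of the 35 rises (20%) every RAG-2-deficient, Artemis- and ATM-deficient and IkB-DN sample lay below all Artemis-deficient lines: Nfkbie, Cd52, Cd55, Nuak2, Prps2, Sdhaf1 and 2610037D02Rik, the last 3 and Nuak2 being named after their values were seen. Among all 742 genes with Artemis-deficient lines above wild type lines the share was 10.5%. In 11 of the 35 (31.4%, against 13.1% of the 742) every one of those samples lay above all wild type lines, among them Tnfrsf19, Cd244a, Icam2 and Nuak2. For Tnfrsf19 this did not hold in every called probe set. Of the 22 falls, 3 (13.6%, against 4.97% of the 805) had the Artemis-deficient lines below all others, namely Mcm6, Jakmip1 and Plp2. For Jakmip1 this held in its representative probe set alone. A further 9 of the falls (40.9%, against 12.7%) had the wild type lines above all others. Among these 9 were Ccdc74a, Osr2, Cited2, Bend4, Flrt1 and Igkv6-14. For Ccdc74a and Cited2 this held in the representative probe set and not in the second one. The called genes enter these counts through the same Artemis-deficient and wild type values that chose them, and the IkB-DN lines also set their spread, so the shares are descriptions with no test.

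In bone marrow pre-B cells with an IgH transgene, Artemis-deficient samples (n = 2) were set against RAG-1-deficient samples (n = 2), another control than the wild type lines. Of 19514 probe sets tested there, 508 (2.6%) were called. Of the probe sets called in the lines, 84 were tested in marrow and 49 (58.3%) had the same sign, beside 51.1% of the 17744 tested in both, and 4 were called in marrow, 2 with the same sign. Nfkbie was called 1.64 higher (adjusted p = 0.0339), as in the lines, and Cd244a differed by 1.62 (adjusted p = 0.051). Lifr was called 1.72 higher (adjusted p = 0.0256) and Sh2d5 was called with a difference of -1.29 (adjusted p = 0.0459), both opposite to the lines, and the feedback gene Tnfaip3 was called 1.20 higher (adjusted p = 0.029). In such bulk samples fewer cells with a transcript and less of it per cell cannot be told apart.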

How the data were processed

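Transcripts of 16 line and 4 bone marrow samples were measured on Affymetrix whole-genome mouse arrays, read with the array maker's operating software per the labels. The deposited values are log10 signals; the base was inferred from the values. Summary and scaling: not given in the sources used here. Per array, the median signal was 26.8 to 27.7 for lines and 46.9 to 47.8 for marrow, and 14.7% of cells were empty and left so. Arrays have no read depth, and their number limits the precision.

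Signals plus a pseudocount (6 in lines, 11 in marrow) were taken to log2, which understates changes of low genes. Probe sets were kept when 2 samples reached their array's median. Technical arrays (2 per Artemis- and ATM-deficient line) were averaged, leaving 14 line samples. The 5 groups shared a limma 3.58.1 fit in R 4.3.3 (9 residual and 3.08 prior degrees of freedom, intensity trend), with two-sided p adjusted by Benjamini-Hochberg over all probe sets tested. Each p value sets a difference of means against the spread within the 5 groups, to which the closely correlated IkB-DN samples contribute. The fitting code was run on simulated data with known differences; no outcome of that run supports a result here. Of 44200 probe sets, 34294 name 1 gene, 916 several and 8990 none by the platform annotation; each gene is represented by its probe set of highest mean level. Named genes are the 15 largest rises and falls among called genes without overlap, called list members, and where a list has none up to 3 with the smallest p. Members and gene lists were chosen with earlier results of these data known. Promoters are from RefSeq (GRCm38.p6).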

Additional observations from a re-analysis of the deposited data

How the results depend on the processing

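The number of probe sets called, 110, fell to 11 without the IkB-DN lines, to 6 with the 2 compared groups alone, and to 9 without the IkB-DN lines and Artemis-deficient replicate 3, a setting chosen after seeing the data; fewer samples enter each of these fits. Leaving out 1 line gave 60 to 188. Under the other settings tried (pseudocounts, quantile normalization, filters, first technical array, no trend, array weights, and, chosen after seeing the data, no RAG-2-deficient or no Artemis- and ATM-deficient lines) it stayed between 82 and 142. The 9 list members called became 1 without the IkB-DN lines, 0 with the 2 groups alone, 2 without the IkB-DN lines and Artemis-deficient replicate 3 and 5 without the Artemis- and ATM-deficient lines, and 3 to 11 when 1 line was left out. Of the 33 named genes that were called, 29 lost the call without the IkB-DN lines and 31 with the 2 groups alone, and none of them turned its direction in a setting that tested it. Among values that were never called, Rag1 turned to -0.028 with quantile normalization and to -0.044 without the IkB-DN lines and Artemis-deficient replicate 3, a setting in which Car2 turned to 1.31 and Cd8a to -0.14. With 1 line left out, differences ranged from -0.044 to 0.216 for Rag1, from -0.207 to 0.055 for Atm, from -2.32 to 1.31 for Car2, from -0.14 to 0.926 for Cd8a, from -0.205 to 0.091 for Notch1 and from -2.85 to 0.529 for Fcgr3; the cause was not tested. No paired analysis was possible because the labels give the lines of the 2 groups no shared numbers. With 3 lines per group, differences within the spread between lines could not be detected.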
